A study of Homo sapiens with 12 samples.

Results

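The mRNAs described here encode parts of the lysosome and of the V-ATPase, the proton pump that acidifies it. A list of 42 gene symbols was matched to the Ensembl identifiers of a TPM table (TPM, transcripts per 1000000, a level per transcript length that sums to a fixed total in every library), and all 42 were found among its 63036 identifiers. The table covers HCT116 and HCT15, established human colorectal carcinoma lines, each as control cells (genotypes HCT116_con and HCT15_con) and as cells overexpressing RNF26 (HCT116_ov_RNF26 and HCT15_ov_RNF26). Each of the 4 groups holds 3 libraries of polyA RNA, and no further allele, agent or time is named. RNF26 is a ubiquitin ligase of the endoplasmic reticulum that is known to hold endosomes and lysosomes near the nucleus, and the series title links it to growth, spread and Wnt signalling of colorectal cancer cells. The labels do not say whether libraries came from separate cultures or how many clones carry RNF26, and the p-values therefore speak of the scatter among these libraries alone, which could be technical.

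Lysosomes break down proteins, glycans, lipids and nucleic acids with hydrolases that work at acidic pH. The V-ATPase supplies that acidity: its V1 sector hydrolyses ATP in the cytosol and drives rotation, and its V0 sector carries protons through the membrane. TFEB and TFE3, related transcription factors, enter the nucleus when the kinase mTORC1 is inactive and bind the CLEAR element, a sequence with an E-box at its centre, near the start of many of these genes.

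The motif at the centre of that element was looked for in the 250 bases before each RefSeq start (build GRCh38.p14), with 33 of the 42 genes having such a window. TCACGTGA, which reads the same on both strands, was present for 6 of the 33 genes (18.2%) and for 1.04% of 27305 genes. The shorter E-box CACGTG, contained in TCACGTGA and also the same on both strands, was present for 9 of the 33 genes (27.3%) and for 7.73% of all genes. The 6 genes with TCACGTGA were LAMP1, MCOLN1, CTSA, GAA, ATP6V0D1 and ATP6V1G1, and the 3 with the E-box alone were CTSD, NEU1 and CD63. The stretches around the motif are shown for the former 6 and for CTSD, because they carry the letters that these factors are known to bind. They lie at chr13:113297027-113297237 for LAMP1 (plus strand), chr19:7522562-7522623 for MCOLN1 (plus), chr9:114587690-114587737 for ATP6V1G1 (plus), chr20:45891298-45891327 for CTSA (plus), chr17:80101538-80101567 for GAA (plus), chr16:67481199-67481228 for ATP6V0D1 (minus) and chr11:1763957-1763986 for CTSD (minus). Each is written 5′ to 3′ on the strand of its gene, and capitals mark TCACGTGA or, where that is not present, CACGTG.
LAMP1: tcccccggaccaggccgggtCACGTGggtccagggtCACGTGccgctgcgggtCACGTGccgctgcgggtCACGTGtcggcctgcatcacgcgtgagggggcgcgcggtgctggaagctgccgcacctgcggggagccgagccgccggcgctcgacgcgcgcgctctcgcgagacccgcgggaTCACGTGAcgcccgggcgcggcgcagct
MCOLN1: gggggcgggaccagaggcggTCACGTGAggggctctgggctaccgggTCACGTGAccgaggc
ATP6V1G1: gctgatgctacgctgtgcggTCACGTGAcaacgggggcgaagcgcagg
CTSA: ggcgccggagtTCACGTGActcgtacacat
GAA: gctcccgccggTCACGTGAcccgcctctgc
ATP6V0D1: cccccttatggTCACGTGAggcgcttgcgc
CTSD: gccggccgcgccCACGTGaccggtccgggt

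The stretch before LAMP1 holds 5 E-boxes, of which the one nearest the gene is TCACGTGA, and that of MCOLN1 holds TCACGTGA 2 times. A match is a description of the letters and not of a bound site. The stretches of CTSA, GAA, ATP6V0D1 and CTSD overlap an exon annotated in GENCODE 29 and were cut to 30 bases around 1 match. Those of LAMP1, MCOLN1 and ATP6V1G1 overlap none. The whole window of GAA holds TCACGTGA 2 times, and that of CTSA holds 2 E-boxes, of which 1 is TCACGTGA.

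RNF26 itself checked the labels. It was at 15.6, 18.4 and 16.5 TPM in HCT116 controls and at 299, 334 and 255 TPM in HCT116 RNF26 libraries. In HCT15 it was at 26.7, 27.8 and 26.4 TPM in controls and at 53.5, 54.6 and 54.4 TPM in RNF26 libraries, a ratio of 2.01. The arms did not overlap in either line, and the exact permutation p (two-sided) was 0.1, which is as low as 3 against 3 libraries can reach. TPM per gene does not separate the introduced copy from the gene itself.

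Of the epithelial markers 10 of 12 reached 1 TPM in at least 1 of the libraries, though not the same ones in both lines. In HCT116 VIL1 (0.32 to 0.55 TPM), CDH17 (up to 0.17) and LGALS4 (up to 0.09) stayed under 1 TPM, as KRT20 did in HCT15 (up to 0.07). The 12 epithelial markers summed to 2726 to 3219 TPM in HCT116 libraries. In HCT15 they summed to 4825 to 5603 TPM in controls and to 4362 to 4547 TPM in RNF26 libraries, without overlap. CDX2 was at 22.8 to 34.3 and 7.07 to 13.03 TPM and VIL1 at 57.8 to 97.7 and 25.4 to 26.4 TPM. KRT8, KRT19, CDH1 and CDH17 were also lower in every RNF26 library. The arms overlapped for EPCAM (546 to 572 and 540 to 563 TPM) and KRT18 (1536 to 2113 and 1672 to 1826 TPM). LGALS4 was higher in every RNF26 library, at 0.89 to 1.81 TPM against 0.26 to 0.51 TPM. The part of this shift in the HCT15 results below was not tested. Macrophage markers, included because macrophages are rich in lysosomes, summed to 7.84 to 22.4 TPM, of which only CD14 and CD68 reached 1 TPM, with TYROBP, C1QA and C1QB listed at 0 in every library. CD14 reached it in HCT15 only. No lymphocyte or endothelial marker reached 1 TPM, and of the fibroblast markers COL1A1 alone did, in HCT116 only. Mitochondrially encoded mRNAs made up 16.4% to 25.9% of TPM and ribosomal protein mRNAs 17.5% to 27.5%. HCT15 control 3 stood apart, with the highest mitochondrial and the lowest ribosomal protein share, and HCT15 RNF26 libraries had ribosomal protein shares of 26.3% to 27.5%. These shares enter every TPM value through the fixed total. Sequencing depth is unknown, since TPM does not keep it. In such bulk RNA, fewer cells of a kind and less RNA per cell cannot be told apart.

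All 42 genes passed the filter for testing (TPM of 1 or more in at least 3 libraries), as did 15584 genes in all. Together they held 2343 to 2429 TPM in HCT116 controls and 2761 to 3054 TPM in HCT15 controls, which is 0.225% to 0.305% of the TPM of a library over all 12. The most abundant were CD63, a tetraspanin of late endosomes and lysosomes (301 to 413 TPM over the 12 libraries), NPC2, the soluble carrier that hands on cholesterol in the lysosome (168 to 382 TPM), and ATP6V1F, a V1 subunit (210.2 to 293 TPM). The least abundant was TFEB, at 1.39, 1.91 and 1.38 TPM in HCT116 controls and 0.760, 1.40 and 1.53 TPM in HCT15 controls.

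In HCT15, cells overexpressing RNF26 had lower levels of many lysosomal hydrolases, of the membrane protein LAMP1, of TFE3 and of the V0 subunits ATP6V0A1 and ATP6V0D1. None of the 8 V1 subunits among the 42 genes was lower. Of the 42 genes 21 fell and 3 rose (limma on log2(TPM + 1), Benjamini-Hochberg adjusted p under 0.05 over all genes, two-sided), and 18 did not pass. Of all tested genes 31.2% fell and 5.39% rose, so falls were common in this comparison. The median log2 fold change was -0.24 over the 42 genes and -0.17 over all genes tested. Fold changes on this scale understate the change of genes with low TPM. The split between rises and falls depended on the scale. With median-ratio scaling of the libraries 11 of the 42 genes rose and 12 fell, where 14.4% and 16.7% of all genes did, and with quantile normalization 12 and 14, where 14.6% and 16.2% did. When mitochondrial and ribosomal protein genes were left out 9 rose and 18 fell (9.12% and 22.5% of all genes), and once GC content and length were corrected for 9 rose and 13 fell (11.9% and 16.2%). With the same correction but the library means kept, a setting added after the data were seen, 0 rose and 18 fell (4.26% and 33.4%). The median of all genes lay between -0.19 and 0 across these scales, and 9 of the 42 genes fell under all 6 of them: LAMP1, CTSA, CTSD, TPP1, GRN, TFE3, ATP6V0A1, ATP6V0D1 and ATP6AP1.

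**Figure D1:**
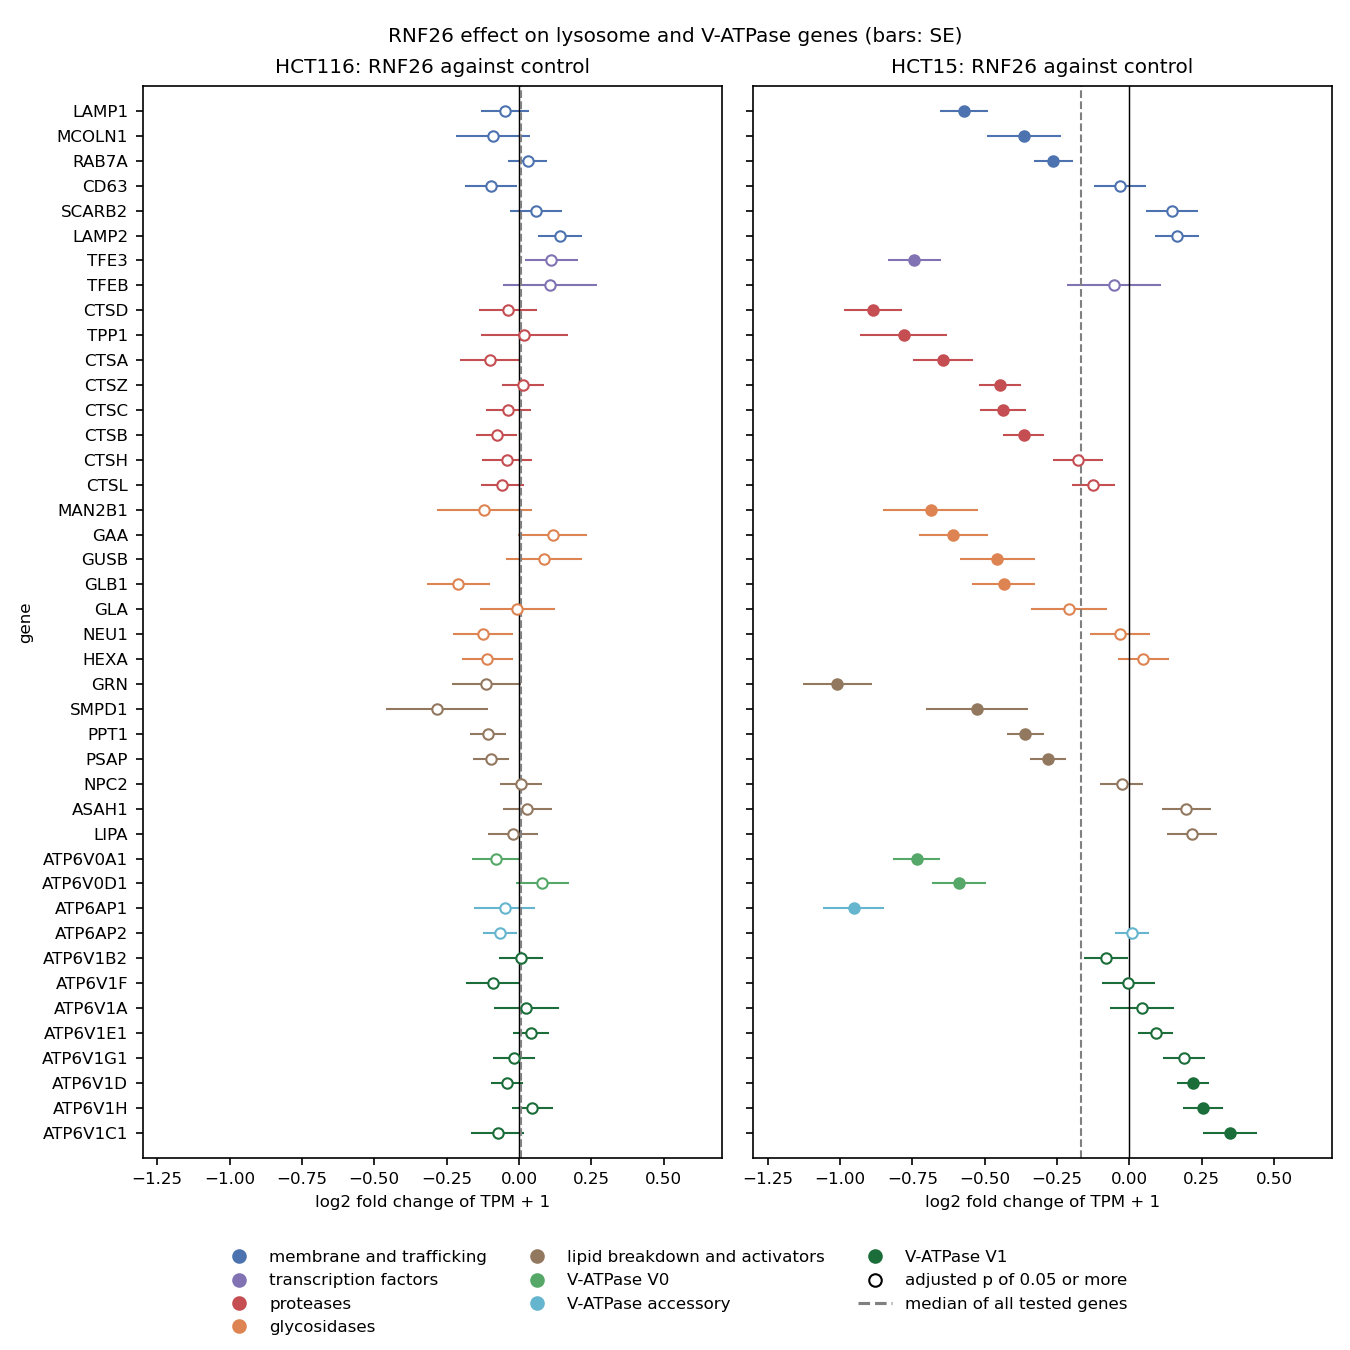
Log2 fold changes of TPM + 1 between RNF26 and control libraries for the 42 genes in HCT116 (left) and HCT15 (right), grouped by role, with bars of 1 SE; filled points have an adjusted p under 0.05 and the dashed line is the median of all tested genes. In HCT15 21 filled points lie below 0 and 3, all V1 subunits, lie above it, while in HCT116 no point is filled.

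Of the membrane and trafficking proteins 3 of 6 fell in HCT15. LAMP1, one of the most abundant glycoproteins of the lysosomal membrane (ENSG00000185896, chromosome 13 from 113297241 to 113323672, plus strand), was at 42.3, 40.8 and 35.2 TPM in controls and at 24.5, 27.1 and 26.8 TPM in RNF26 libraries. Every RNF26 library lay below every control. The log2 fold change was -0.57 (SE 0.0828, limma adjusted p = 0.000421), which is -0.41 relative to the median of all genes. The other falls were RAB7A, the small GTPase that recruits motors and tethers to late endosomes, from 133 ± 11.9 to 110.3 ± 4.23 TPM (SD, n = 3 each), and MCOLN1, a calcium channel of the lysosomal membrane, from 5.63 ± 0.985 to 4.13 ± 0.603 TPM (SD, n = 3 each). RAB7A was at -0.10 and MCOLN1 at -0.20 relative to the median of all genes, and they missed the threshold in 4 and 17 of the 26 settings run, both with median-ratio scaling (RAB7A -0.04, MCOLN1 -0.18). LAMP2, which has a role in chaperone-mediated autophagy, SCARB2, an integral protein of the lysosomal membrane, and CD63 did not pass, with log2 fold changes of 0.16, 0.15 and -0.03. LAMP2 and SCARB2 rose with median-ratio scaling (0.38 and 0.36), quantile normalization (0.43 and 0.36) and GC and length corrected (0.19 and 0.26). Both also rose without mitochondrial and ribosomal protein genes (0.28 and 0.27).

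TFE3 fell in HCT15 and TFEB did not pass. TFE3 (ENSG00000068323, chromosome X from 49028726 to 49043486, minus strand) was at 20.8, 18.7 and 20.5 TPM in controls and at 11.1, 11.99 and 11.5 TPM in RNF26 libraries, with no overlap. Its log2 fold change was -0.74 (SE 0.0926, limma adjusted p = 0.000186). TFEB was at 0.940, 1.27 and 1.17 TPM in RNF26 libraries, within the range of the controls, with a log2 fold change of -0.05 (SE 0.161, limma adjusted p = 0.845) that turned to 0.06 with median-ratio scaling and to 0.36 with GC and length corrected. The ratio of TFE3 to TFEB TPM in a library was 13.3 to 27.4 in HCT15 controls, 9.44 to 11.8 in HCT15 RNF26 libraries and 1.54 to 2.98 over the HCT116 libraries.

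Proteases were the role with the most falls, 6 of 8. CTSD, the main aspartic protease of the lysosome (ENSG00000117984, chromosome 11 from 1752752 to 1764573, minus strand), was at 117, 98.6 and 105 TPM in HCT15 controls and at 56.2, 57.6 and 57.7 TPM in RNF26 libraries. The mean in RNF26 libraries was 53.5% of that in controls, and the groups were far apart relative to their spread. CTSD had a log2 fold change of -0.89 (SE 0.1, limma adjusted p = 0.000114). CTSA, a carboxypeptidase that also protects beta-galactosidase and neuraminidase (ENSG00000064601), was at 28.2, 26.9 and 22.1 TPM in controls and at 15.8, 17.04 and 15.3 TPM in RNF26 libraries, again without overlap. Its log2 fold change was -0.64 (SE 0.103, limma adjusted p = 0.000744). TPP1, which removes tripeptides from protein ends, fell from 27.1 ± 6.94 to 15.0 ± 0.255 TPM (SD, n = 3 each), with control 2 at 19.1 TPM far below the other controls. The cysteine proteases CTSB, CTSC and CTSZ fell by 0.36, 0.44 and 0.45 on the log2 scale, and these calls depended on the scale. With median-ratio scaling CTSB (-0.15) and CTSC (-0.22) did not pass, nor did CTSC with quantile normalization (-0.20). With GC and length corrected CTSB (-0.12) and CTSZ (-0.06) did not pass. CTSH and CTSL, also cysteine proteases, did not pass, at -0.18 and -0.12.

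Enzymes that remove sugars fell in 4 of 7 cases. MAN2B1, an alpha-mannosidase, was at 19.9, 14.3 and 17.7 TPM in HCT15 controls and at 8.98, 13.7 and 8.82 TPM in RNF26 libraries, a log2 fold change of -0.69 (SE 0.164, limma adjusted p = 0.00738). RNF26 library 2 lay just under the lowest control, and MAN2B1 did not pass with GC and length corrected, at -0.39. GLB1, the beta-galactosidase, was at 47.1, 41.99 and 40.4 TPM in controls and at 33.99, 30.9 and 30.1 TPM in RNF26 libraries, and GUSB, the beta-glucuronidase, at 33.2, 31.9 and 25.3 against 21.5, 21.6 and 21.5 TPM. Both were lower in every RNF26 library, with log2 fold changes of -0.43 (GLB1, SE 0.109, limma adjusted p = 0.00966) and -0.46 (GUSB, SE 0.13, limma adjusted p = 0.0181). Neither passed with median-ratio scaling, at -0.22 and -0.24, or with quantile normalization, at -0.22 and -0.23, and GUSB did not with GC and length corrected, at -0.15. GAA, which digests glycogen, fell from 18.5 ± 0.716 to 11.8 ± 1.34 TPM (SD, n = 3 each). HEXA, GLA and NEU1, which act on gangliosides, globosides and sialic acids, did not pass, at 0.05, -0.21 and -0.03. HEXA rose with median-ratio scaling, quantile normalization and GC and length corrected (0.26, 0.28 and 0.26), and NEU1 with the last (0.30).

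Among enzymes and activators of lipid breakdown 4 of 7 fell. GRN encodes progranulin, which is cleaved to granulins in the lysosome and is needed for its normal function (ENSG00000030582, chromosome 17 from 44345086 to 44353102, plus strand). It was at 99.3, 80.04 and 94.3 TPM in HCT15 controls and at 40.4, 45.4 and 48.5 TPM in RNF26 libraries. This was the strongest fall of the 42 genes, a log2 fold change of -1.01 (SE 0.12, limma adjusted p = 0.000144), and the groups were well separated. PPT1, which removes palmitate from proteins, was at 138, 138 and 137 TPM in controls and at 99.4, 117 and 105 TPM in RNF26 libraries, a log2 fold change of -0.36 (SE 0.0637, limma adjusted p = 0.00136). PPT1 did not pass with median-ratio scaling, at -0.14. PSAP, the precursor of the saposins, fell from 153 ± 4.72 to 126 ± 4.93 TPM, and SMPD1, the acid sphingomyelinase, from 6.23 ± 0.516 to 4.12 ± 1.30 TPM (SD, n = 3 each). PSAP missed the threshold in 3 of the 26 settings, among them median-ratio scaling (-0.06), and SMPD1 in 15. ASAH1, the acid ceramidase, and LIPA, the acid lipase, had log2 fold changes of 0.20 and 0.22 and NPC2 one of -0.03, and none of these passed. ASAH1 and LIPA rose with median-ratio scaling (0.41 and 0.43) and quantile normalization (0.41 and 0.49). Both also rose without mitochondrial and ribosomal protein genes (0.32 and 0.34), and LIPA with GC and length corrected (0.26). Hydrolases and activators together numbered 22, of which 14 fell and 0 rose, with a median of -0.40, where 31.2% of all genes fell. With median-ratio scaling 7 fell and 3 rose (median -0.18), with quantile normalization 9 and 3 (median -0.21), without mitochondrial and ribosomal protein genes 13 and 2 (median -0.29), and with GC and length corrected 7 and 3 (median -0.13).

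**Figure D2:**
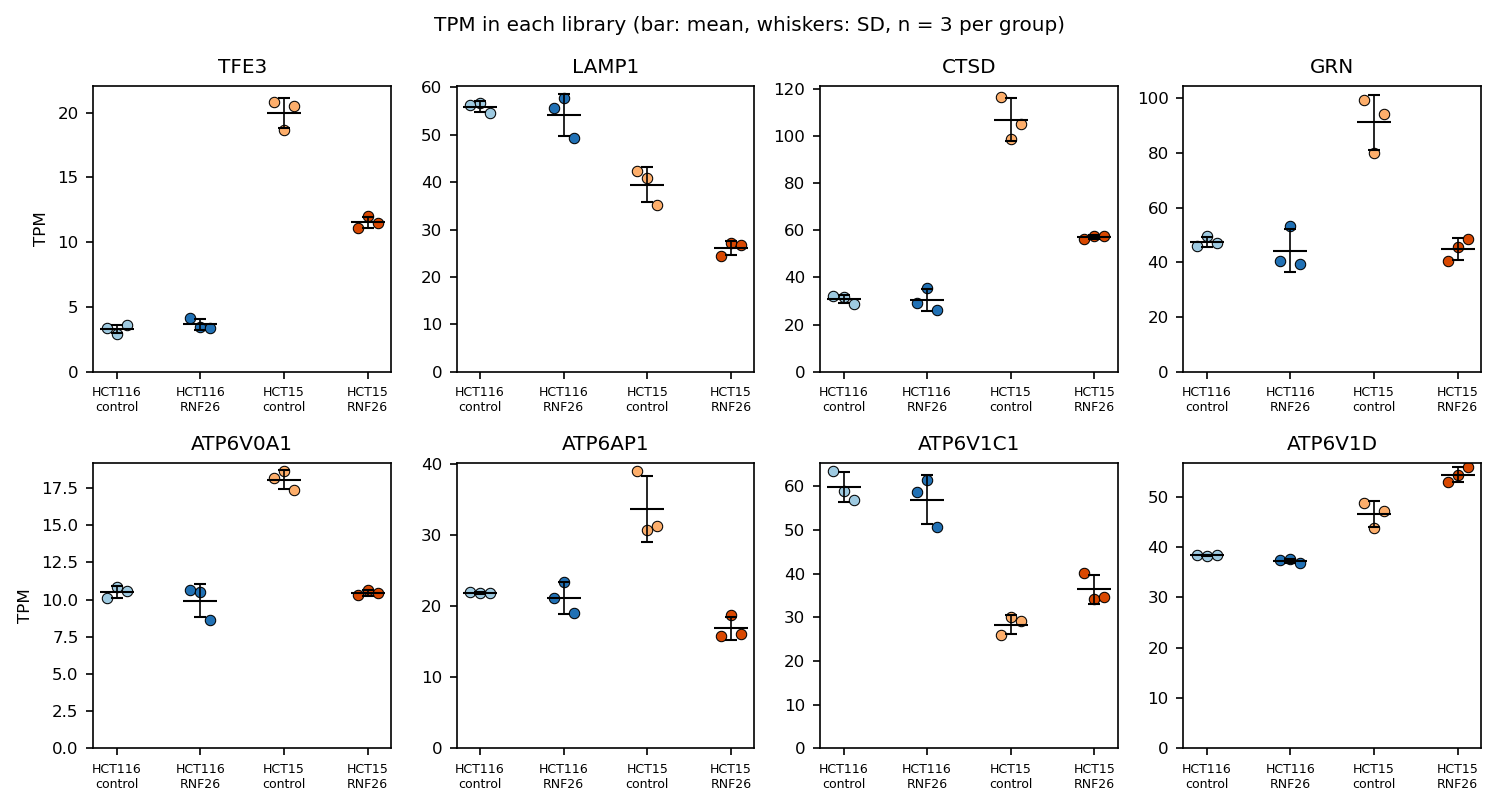
TPM of 8 genes in each of the 12 libraries, with points for libraries, horizontal bars for the mean and whiskers for the SD of the 3 libraries of a group. TFE3, LAMP1, CTSD, GRN, ATP6V0A1 and ATP6AP1 are lower in all HCT15 RNF26 libraries than in all HCT15 controls, ATP6V1C1 and ATP6V1D are higher, and the HCT116 groups lie close together.

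In HCT15 the V0 and V1 subunits among the 42 genes went different ways, and both V0 subunits, ATP6V0A1 and ATP6V0D1, fell. Of the 6 other V0 subunits tested 4 fell (ATP6V0A2, ATP6V0C, ATP6V0E2 and TCIRG1), ATP6V0E1 rose and ATP6V0B did not pass, as named here after their values were seen. ATP6V0A1, the a1 subunit that takes part in proton transfer (ENSG00000033627, chromosome 17 from 42458844 to 42522611, plus strand), was at 18.2, 18.7 and 17.4 TPM in controls and at 10.3, 10.6 and 10.4 TPM in RNF26 libraries, and the log2 fold change was -0.74 (SE 0.0819, limma adjusted p = 0.000105). ATP6V0D1, the d1 subunit that couples the rotor to V1 (ENSG00000159720, chromosome 16 from 67438014 to 67481237, minus strand), was at 29.6, 24.1 and 24.6 TPM in controls and at 16.1, 17.3 and 17.4 TPM in RNF26 libraries, a log2 fold change of -0.59 (SE 0.093, limma adjusted p = 0.000679). Both were clear of the control range in every RNF26 library. Of the accessory subunits, ATP6AP1, needed for assembly of the pump (ENSG00000071553, chromosome X from 154428632 to 154436516, plus strand), was at 38.97, 30.7 and 31.3 TPM in controls and at 15.8, 18.7 and 16.04 TPM in RNF26 libraries. It had the smallest p of the 42 genes, with a log2 fold change of -0.95 (SE 0.106, limma adjusted p = 0.000105). ATP6AP2, the other accessory subunit, was at 52.9 ± 1.84 and 53.2 ± 2.23 TPM (SD, n = 3 each) and did not pass. It rose with median-ratio scaling and with quantile normalization (0.22 and 0.23).

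None of the 8 V1 subunits among the 42 genes fell and 3 rose, where 31.2% of all genes fell and 5.39% rose. Further V1 genes (ATP6V1B1, ATP6V1C2, ATP6V1E2, ATP6V1G2 and ATP6V1G3) were listed with the other subunits below and are not shown singly. The median log2 fold change of the 8 was 0.14. The 3 that rose, named here after their values were seen, were ATP6V1C1, which reversibly links V1 to V0, from 28.3 ± 2.12 to 36.4 ± 3.25 TPM, ATP6V1D, part of the central shaft, from 46.5 ± 2.58 to 54.4 ± 1.49 TPM, and ATP6V1H, a regulatory subunit, from 18.3 ± 1.08 to 21.99 ± 0.431 TPM (SD, n = 3 each). Their log2 fold changes were 0.35, 0.22 and 0.25 (limma adjusted p = 0.0123, 0.00944 and 0.0144). ATP6V1A, the catalytic subunit, had a log2 fold change of 0.04 and ATP6V1B2, its partner, one of -0.08. All 8 lay above the median of all genes. With median-ratio scaling 5 V1 subunits rose, where 14.4% of all genes did, and with quantile normalization 6 (14.6% of all genes). Without mitochondrial and ribosomal protein genes 5 rose (9.12%), and after GC and length correction 4 did (11.9%). When that correction kept the library means 0 rose (4.26%), with a V1 median of 0.03. Over the 42 genes 1 rose without HCT15 control 1 (4.08% of all genes) and 5 rose without HCT15 control 2 (7.51%).

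A ratio inside a library does not change when all its values are multiplied by the same factor. It can change with quantile normalization or GC and length correction, and the ratios here are from the TPM as deposited. The summed TPM of the 8 V1 subunits was 12.6, 14.5 and 12.99 times that of ATP6V0A1 and ATP6V0D1 in HCT15 controls and 23.5, 22.1 and 22.8 times in HCT15 RNF26 libraries, so the groups did not overlap. In HCT116 it was 17.4 ± 0.212 in controls and 16.5 ± 1.72 in RNF26 libraries (SD, n = 3 each), and there the groups overlapped. ATP6V1F alone made up a large part of the V1 sum, and the other V0 subunits are not in the V0 sum. The ratio shows unequal change and not which sector changed.

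GC content moved with these groups. The median over annotated transcripts was 44.5% for the 8 V1 subunits, 57.4% for the 21 genes that fell in HCT15, 54.3% for the 34 other genes and 49.9% for all genes tested. With GC and length corrected, the V1 median was 0.21 (log2 fold change) and ATP6V0A1, ATP6V0D1 and ATP6AP1 fell, while the median of hydrolases and activators was -0.13 and that of all 42 genes was -0.0032, with -0.01 for all genes. Without HCT15 control 3, the library that stood apart, 4 of the 42 genes rose and 22 fell, where 4.19% and 28.8% of all genes did.

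**Figure D3:**
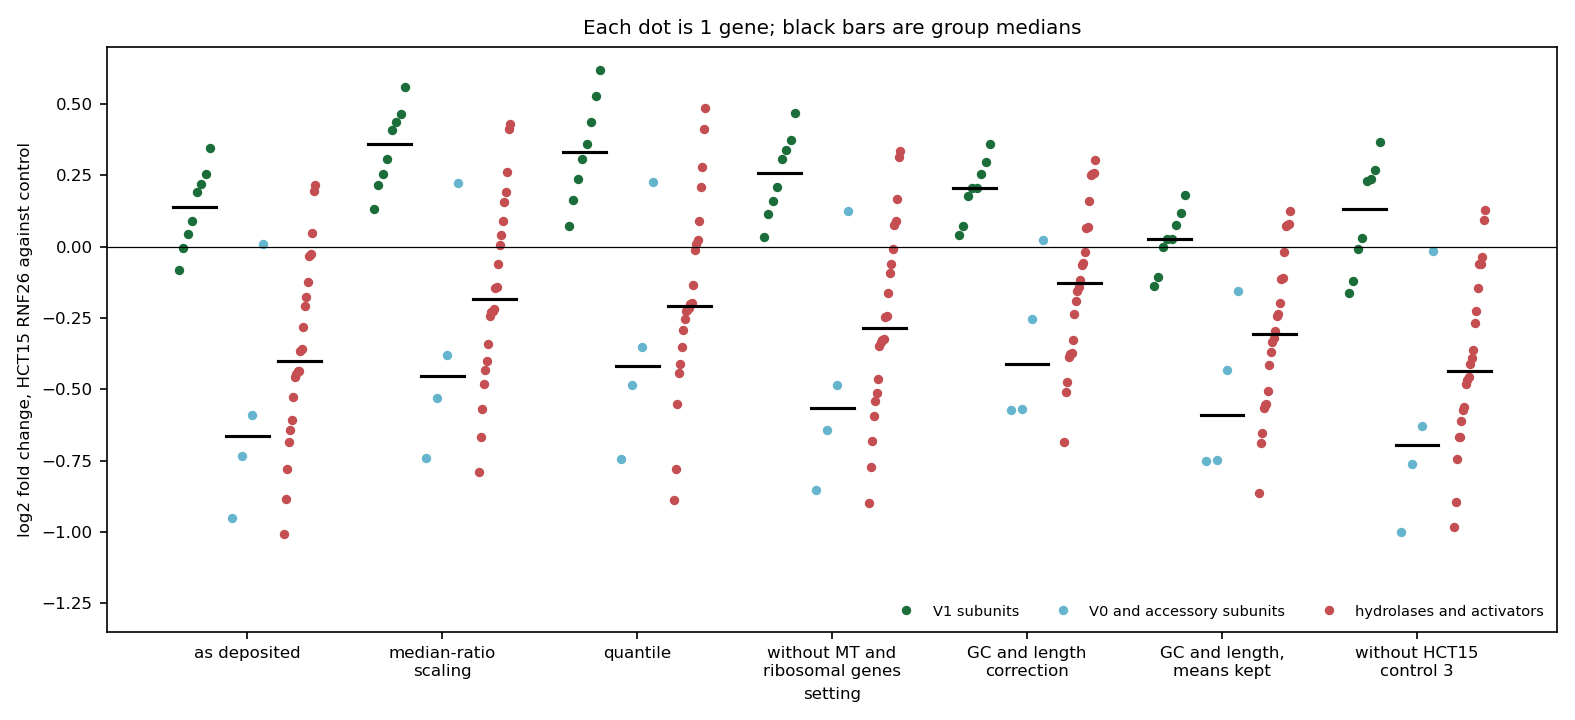
Log2 fold changes in HCT15 (RNF26 against control) for 8 V1 subunits, 4 V0 and accessory subunits and 22 hydrolases and activators, under 6 scales and without HCT15 control 3, with 1 point per gene and black bars for medians. The V1 median lies above the medians of the other groups in each setting drawn, and the position of 0 among the points shifts with the scale.

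Genes with the CLEAR centre in their window included 5 that fell in HCT15 (LAMP1, MCOLN1, CTSA, GAA and ATP6V0D1) out of 6, and ATP6V1G1, a V1 subunit, was at 0.19 and did not pass. These calls depended on the scale: MCOLN1 did not pass with median-ratio scaling, quantile normalization or GC and length corrected, nor GAA with the last, and ATP6V1G1 rose under each of these 3, by 0.41, 0.36 and 0.36. Of the 27 genes with a window and without TCACGTGA 14 fell, and of all genes tested 31.2% did. In the TPM as deposited the medians were -0.58 with and -0.26 without TCACGTGA, and they were not taken on other scales. With GC and length corrected the 6 genes were at -0.21 (LAMP1), 0.01 (MCOLN1), -0.37 (CTSA), -0.19 (GAA), -0.25 (ATP6V0D1) and 0.36 (ATP6V1G1). Whether the motif had a part in the falls was not tested. ATP6AP1, ATP6V0A1, GRN and TFE3, which were among the strongest falls, had neither TCACGTGA nor CACGTG in these 250 bases.

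In HCT116 no difference was detected for any of the 42 genes, where RNF26 itself rose more than in HCT15. By limma 0 of 42 rose and 0 fell, and 0 had an unadjusted p under 0.05. In the other settings run limma called 0 of them as well. Of all genes 0.00642% rose, which is RNF26 alone, and 0% fell. The libraries of both arms did not overlap for 1 gene on the higher side, LAMP2, and for 4 on the lower side, PPT1, CD63, ATP6V1D and ATP6V1F, against 7.25% and 5.56% of all genes. The median log2 fold change was -0.04 over the 42 genes and 0.01 over all genes.

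The smallest p in HCT116 belonged to GLB1, LAMP2 and PPT1. GLB1 was at 19.7, 14.5 and 15.1 TPM in controls and at 13.8, 14.9 and 13.2 TPM in RNF26 libraries, which overlap, with a log2 fold change of -0.21 (SE 0.109, limma adjusted p = 1). LAMP2 was at 15.9, 16.8 and 16.5 TPM in controls and at 19.5, 17.7 and 17.4 TPM in RNF26 libraries, a log2 fold change of 0.14 (SE 0.0769, limma adjusted p = 1). PPT1 was at 57.4, 55.7 and 53.6 against 52.7, 49.95 and 52.0 TPM, a log2 fold change of -0.11 (SE 0.0637, limma adjusted p = 1). LAMP1 and TFE3, which fell in HCT15, were at 55.9 ± 1.15 and 3.31 ± 0.326 TPM in HCT116 controls and at 54.1 ± 4.40 and 3.67 ± 0.437 TPM in HCT116 RNF26 libraries (SD, n = 3 each).

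The difference between the RNF26 effects of the lines (HCT15 minus HCT116) was tested in the same fit and passed for 14 of the 42 genes, 12 more negative in HCT15 and 2 more positive. Among all genes 18.7% were more negative and 1.8% more positive. The median difference was -0.19 over the 42 genes and -0.18 over all genes, so as a set they differed between lines about as far as the rest. The 4 smallest p belonged to TFE3 (-0.86, SE 0.131, limma adjusted p = 0.00242), ATP6AP1 (-0.90, SE 0.149, limma adjusted p = 0.00338), CTSD (-0.85, SE 0.142, limma adjusted p = 0.00354) and ATP6V0A1 (-0.66, SE 0.116, limma adjusted p = 0.00443). In HCT116 these genes had log2 fold changes of 0.11, -0.05, -0.04 and -0.08. By role the more negative genes were 5 proteases, both V0 subunits, ATP6AP1, LAMP1, TFE3, GAA and GRN. The 2 more positive genes, ATP6V1C1 and ATP6V1D, passed narrowly, and their number ranged from 0 to 2 when single libraries were left out. It was 0 without any 1 of HCT116 control 1, 2 or 3, HCT116 RNF26 1 or 3, or HCT15 RNF26 1 or 3, and 1 without HCT116 RNF26 2, HCT15 control 1 or 3, or HCT15 RNF26 2. With median-ratio scaling or quantile normalization 7 genes were more negative and 7 more positive. Of all genes 7.35% were more negative and 5.99% more positive with the former, and 6.9% and 5.49% with the latter.

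The control cells of the lines differed in most of these genes, as they did in most of all genes tested. TFE3, many glycosidases and lipid enzymes and some proteases were higher in HCT15. Between controls 20 of the 42 genes were higher in HCT15 and 10 were lower (limma, adjusted p under 0.05), where 43.6% of all genes were higher and 26% lower. The median was 0.12 over the 42 genes and 0.22 over all genes. With median-ratio scaling 18 were higher and 15 lower, where 37.1% and 32% of all genes were. With quantile normalization the counts were 18 and 14 (35.1% and 33.6% of all genes), and with GC and length corrected 19 and 16 (36.3% and 34.3%). Under all 6 scales 17 stayed higher and 10 lower. This comparison, the HCT15 RNF26 effect and the difference of effects share the HCT15 controls, so their values are given side by side and not compared.

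TFE3 showed the largest line difference, a log2 fold change of 2.28 (SE 0.0926, limma adjusted p = 1.94e-09), from 3.41, 2.95 and 3.58 TPM in HCT116 controls to the 18.7 to 20.8 TPM of HCT15 controls. Even in HCT15 RNF26 libraries it stayed above all HCT116 libraries, which reached 4.17 TPM. TFEB did not pass, at -0.21 (SE 0.161, limma adjusted p = 0.264).

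Among proteases the lines diverged in both directions, with 4 of 8 higher in HCT15 and 4 lower. CTSH, an aminopeptidase, was at 16.1, 18.1 and 18.3 TPM in HCT116 controls and at 81.9, 83.4 and 74.9 TPM in HCT15 controls, a log2 fold change of 2.13 (SE 0.0853, limma adjusted p = 1.72e-09). CTSD was at 32.1, 31.7 and 28.8 TPM in HCT116 controls, and its log2 fold change was 1.76 (SE 0.1, limma adjusted p = 3.39e-08). Neither gene's libraries came near those of the other line. CTSL, CTSC, CTSA and CTSZ were lower in HCT15, by -0.58, -0.47, -0.26 and -0.25.

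Glycosidases and lipid enzymes were higher in HCT15 controls or did not pass, 5 of 7 in each role being higher and 0 lower. MAN2B1 was at 5.58, 5.70 and 7.05 TPM in HCT116 controls (log2 fold change 1.36, SE 0.164, limma adjusted p = 1.76e-05). GLB1 had a log2 fold change of 1.35 (SE 0.109, limma adjusted p = 6.55e-07). GUSB was at 13.4, 11.6 and 12.8 TPM in HCT116 controls (log2 fold change 1.19, SE 0.13, limma adjusted p = 8.06e-06). PPT1, of the lipid group, had a log2 fold change of 1.29 (SE 0.0637, limma adjusted p = 9.8e-09). For each of these 4 genes all HCT15 controls lay above all HCT116 controls. SMPD1, NPC2, GRN and LIPA made up the other lipid genes that were higher, with log2 fold changes of 1.18, 1.02, 0.92 and 0.26, and ASAH1 and PSAP did not pass.

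SCARB2 was at 16.8, 18.2 and 16.7 TPM in HCT116 controls and at 57.1, 61.6 and 55.3 TPM in HCT15 controls, a log2 fold change of 1.69 (SE 0.0889, limma adjusted p = 1.66e-08). LAMP2 was also higher, by 0.76, whereas LAMP1 (-0.50), MCOLN1 (-0.37) and RAB7A (-0.34) were lower in HCT15. The lines thus carried LAMP1 and LAMP2 in different proportions, 55.9 ± 1.15 and 16.4 ± 0.490 TPM in HCT116 controls and 39.4 ± 3.71 and 28.5 ± 1.37 TPM in HCT15 controls (SD, n = 3 each).

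For the pump, ATP6V0A1 and ATP6AP1 were higher in HCT15 controls, by 0.73 and 0.59, and 3 of 8 V1 subunits were lower and 1 higher. ATP6V1C1 was the gene with the largest deficit in HCT15, at 59.8 ± 3.38 TPM in HCT116 and 28.3 ± 2.12 TPM in HCT15 controls (SD, n = 3 each), a log2 fold change of -1.05 (SE 0.0919, limma adjusted p = 1.19e-06). ATP6V1E1 and ATP6V1B2 were lower by -0.37 and -0.31, and ATP6V1D was higher by 0.27.

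**Figure D4:**
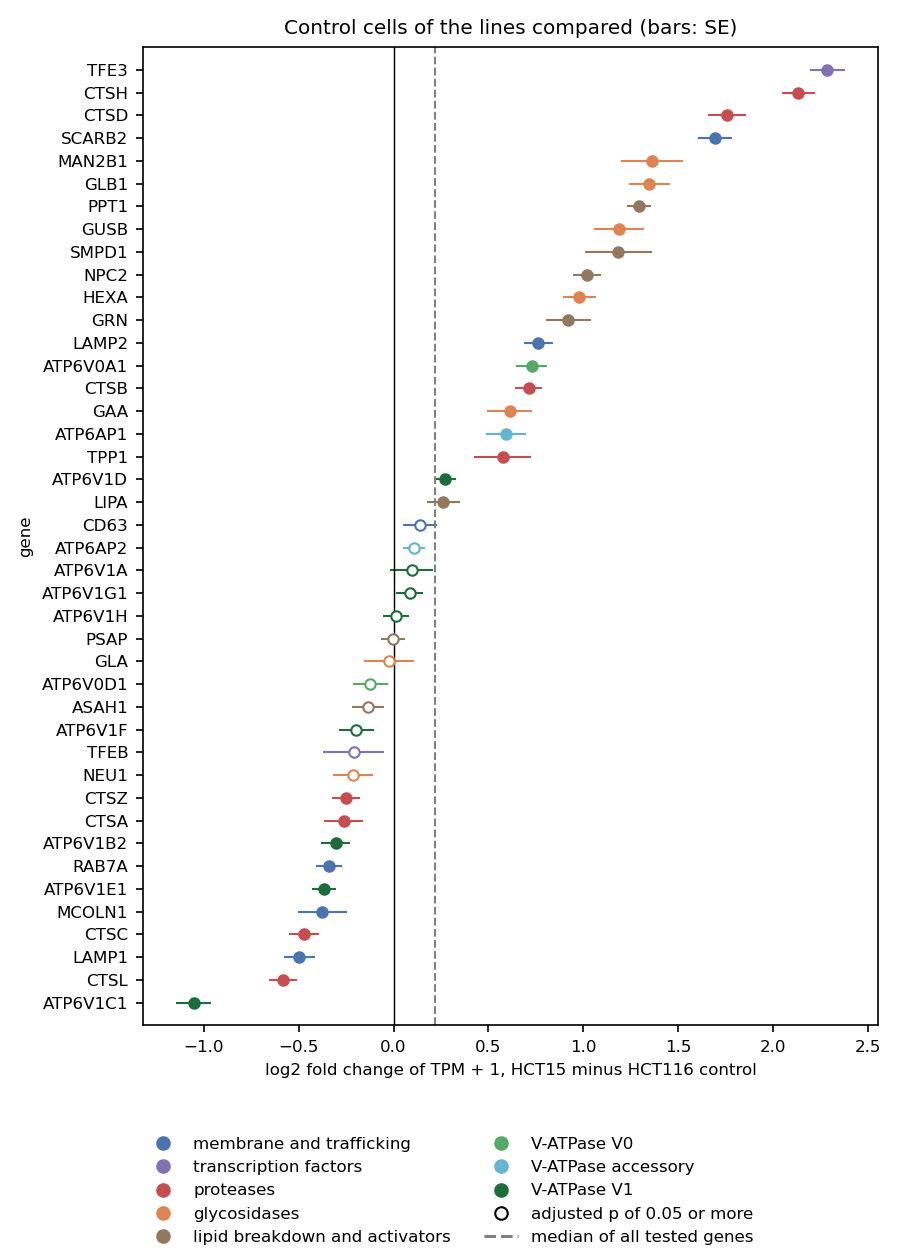
Log2 fold changes of TPM + 1 between HCT15 and HCT116 control libraries for the 42 genes in order of size, coloured by role, with bars of 1 SE; filled points have an adjusted p under 0.05 and the dashed line is the median of all tested genes. TFE3 and CTSH lie above 2 and ATP6V1C1 alone lies below -1.

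Genes that work with these were followed in 7 lists, 168 tested genes in all, of which 71 fell and 8 rose in HCT15 RNF26 cells, with a median of -0.22. Over all genes 31.2% fell and 5.39% rose, with a median of -0.17, and the counts below are to be read against these shares. The list counts are for the TPM as deposited and were not repeated on the other scales. The other V-ATPase subunits and regulators fell in 6 of 18 cases and rose in 2, with a median of -0.15, close to that of all genes. ATP6V0C, the proton-carrying ring subunit, fell from 37.1 ± 2.26 to 20.1 ± 2.01 TPM, as ATP6V0E2, a small V0 subunit, did from 12.4 ± 1.34 to 7.96 ± 0.768 TPM, and DMXL2, a subunit of a complex that promotes pump assembly, rose from 22.8 ± 0.492 to 32.4 ± 2.98 TPM (SD, n = 3 each). Their log2 fold changes were -0.85, -0.57 and 0.48 (limma adjusted p = 0.00014, 0.00216 and 0.00348). ATP6V0E2 missed the threshold in 1 of the 26 settings run. Other lysosomal hydrolases and activators fell in 13 of 33 cases and rose in 1, among them NAGLU, which degrades heparan sulfate (-0.84), and PLBD2, a phospholipase-like protein (-0.72). Other lysosomal membrane proteins fell in 8 of 23 cases and rose in 1, led by SPNS1, a lysophospholipid transporter (-0.89), CLN3 (-0.69) and CLCN7, a chloride-proton exchanger (-0.73). Each of these 5 hydrolase and membrane genes had an adjusted p of 0.00376 or less by limma, and CLCN7 missed the threshold in 1 of the 26 settings.

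Genes that sort hydrolases to the lysosome fell in 10 of 19 cases and rose in 0, led by AP3D1 and AP1M1, subunits of clathrin adaptors (-0.81 and -0.71), and CLN6 (-0.56). Genes of lysosome positioning and fusion, the process in which RNF26 is known to act, fell in 17 of 29 cases and rose in 1. They were led by PLEKHM2, which links lysosomes to kinesin (-0.85), KXD1, a subunit of the BORC complex that moves lysosomes outward (-0.68), and VPS18, a subunit of the HOPS and CORVET tethers (-0.82). The list of MiT factors and lysosomal mTORC1 control fell in 9 of 22 cases and rose in 1, led by the kinase MTOR (-0.74), its partner MLST8 (-0.85) and NPRL3, a GATOR1 subunit (-0.99). Autophagy genes fell in 8 of 24 cases and rose in 2, near the shares over all genes and with a median of -0.14, led by WIPI2 (-0.54), the kinase ULK1 (-0.98) and the lipid transfer protein ATG2A (-0.87). Each of these 12 genes had an adjusted p of 0.00271 or less by limma, and CLN6 missed the threshold in 1 of the 26 settings. In HCT116 limma called 0 of the 168 genes, and 10 had an unadjusted p under 0.05.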

How the data were processed

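The authors deposited 1 table of TPM with 1 column per library, 2 decimals and 63036 identifiers, and each column sums to 1000000. The submitters' processing notes name RSEM, StringTie, HISAT2 and fastp, and build GRCh38; versions and annotation release: not given in the sources used here. TPM keeps no depth, so no counting interval is given. The kit was stranded per the labels' protocols, but strand use in the quantification was not stated, so 8 of the 42 genes share exon positions with another gene on the same strand (among them CTSD, GLB1, TPP1, MAN2B1, MCOLN1 and ATP6V0A1) and 14 on the opposite strand (among them CTSA and ATP6V1D), and have less certain values.

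Groups and replicate numbers were taken from titles. Positions and GC content came from GENCODE 29 and start windows from RefSeq. In R 4.3.3, limma 3.58.1 was fitted once to log2(TPM + 1) of all 12 libraries, with 1 mean per group and a trended prior (8 residual degrees of freedom), for the 15584 genes that reached TPM 1 in 3 libraries or more; p-values were adjusted over all of them. The fit was tested on simulated data. Pseudocounts of 0.1 and 5, other filters, scalings, a GC and length correction (for the 95.3% of tested genes with both values), other priors, a replicate block, separate fits and each library left out were alternatives.

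The genes, roles, lists and tests were chosen with earlier results of these data known. Values per library are given for the 8 genes of smallest p in HCT15, 3 in HCT116, 4 in the difference, the 8 largest called line differences, and LAMP1, TFEB and TFE3; of each list the 3 of smallest p in HCT15 are named, except 1 gene that is not reported here. Other genes singled out were chosen after their values were seen.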

Additional observations from a re-analysis of the deposited data

Results flagged for a closer look

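The RNF26 effect differed between HCT15 and HCT116 for 14 of the 42 genes by the interaction term of the limma fit (adjusted p under 0.05). Among all genes tested 18.7% were more negative in HCT15 and 1.8% more positive. The median difference was -0.19 over the 42 genes and -0.18 over all genes. The differences (log2, HCT15 minus HCT116) were -0.52 for LAMP1, -0.54 for CTSA, -0.40 for CTSC, -0.85 for CTSD, -0.46 for CTSZ, -0.80 for TPP1, -0.72 for GAA, -0.90 for GRN, -0.86 for TFE3, -0.66 for ATP6V0A1, -0.67 for ATP6V0D1 and -0.90 for ATP6AP1. They were 0.42 for ATP6V1C1 and 0.26 for ATP6V1D. The differences of CTSD, GRN, TFE3, ATP6V0A1, ATP6V0D1 and ATP6AP1 passed in each of the 25 settings run, whereas LAMP1 missed the threshold in 3 of them, CTSA in 10, CTSC and TPP1 in 9, CTSZ in 4, GAA in 1, and ATP6V1C1 and ATP6V1D in 14. The RNF26 level also differed between lines, with 54.2 ± 0.562 TPM in HCT15 and 296 ± 39.4 TPM in HCT116 overexpressing cells (SD, n = 3 each), and its part in these differences was not tested.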

How the results depend on the processing

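The genes given per library kept their direction and side of the threshold under every alternative run in the comparison whose p or fold change chose them, as RNF26 did; TFEB, named always, did not pass in HCT15 under any and changed sign under several. Of the 21 genes that fell in HCT15 9 passed in all 26 settings and 12 missed the threshold in 1 to 17 of them, and the 3 that rose missed it in 1 to 3. In HCT15 the genes that rose numbered 11 with median-ratio scaling, 12 with quantile normalization, 9 without mitochondrial and ribosomal protein genes, 9 with GC and length correction, and 0 with library means kept, a setting chosen after seeing the data; those that fell numbered 12 with median-ratio scaling and 13 with GC and length correction. Leaving out single libraries gave 1 to 5 that rose. For the difference of effects the more positive genes numbered 1 without a filter, 7 with median-ratio scaling, 7 with quantile normalization, 0 with library means kept, 0 without a trend, and 0 to 2 without single libraries, and the more negative genes 7, 7 and 6 with median-ratio, quantile and GC and length settings. Of all genes 5.99% were more positive with median-ratio scaling and 5.49% with quantile normalization. More negative were 7.35%, 6.9% and 6.82% of all genes in those last 3 settings. For the control lines 16 genes were lower with GC and length correction. Without a filter the median over the 42 genes minus that of all genes was -0.23 in HCT15, -0.17 for the difference and 0.12 for the lines, and with quantile normalization it was 0.0721 for the lines. With the replicate number as a block 3 rose and 19 fell in HCT15 (5.22% and 29.9% of all genes), and 0 were more positive in the difference of effects (1.62% of all genes). Same-numbered libraries had correlations of deviations from -0.04 to 0.15, and not every library correlated best with its own number, though HCT15 replicate 3 did. Pairing by number was thus not evident, and 3 libraries per group are too few to exclude it. The causes of these shifts were not tested. Depth is unknown, so what it limits cannot be stated.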

Other observations

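In the control cells autophagy genes were higher in HCT15 for 17 of 24 tested genes and lower for 3, with a median log2 difference of 0.55, where the median of all genes was 0.22. Of the other lysosomal hydrolases and activators 19 of 33 were higher in HCT15 and 5 lower, and of the genes of lysosome positioning and fusion 15 of 29 were higher and 4 lower (limma, adjusted p under 0.05). Over all genes 43.6% were higher and 26% lower, and the median of the positioning and fusion list, 0.25, lay close to that of all genes. ULK1, the kinase that starts autophagy, was at 2.06 ± 0.642 TPM in HCT116 and 9.29 ± 0.881 TPM in HCT15 controls, and MLST8, a subunit of mTORC1, at 27.3 ± 1.27 and 95.7 ± 9.97 TPM (SD, n = 3 each).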
